A study of Arabidopsis thaliana with 36 samples.

Results

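Shoots and roots of wild-type (WT) *Arabidopsis thaliana* seedlings were compared after 3 days of phosphate (Pi) starvation. The comparison covers every gene with an AGI locus identifier, the systematic name of an *Arabidopsis* gene, which is 28496 of the 28642 entries of the expression table. It rests on 4 of the 36 RNA-seq libraries of the series, 2 of WT shoots and 2 of WT roots. All WT plants were of the accession Col-0 and were raised on sucrose-containing agar. The starved seedlings had grown for 10 days at 250 μM Pi and for another 3 days at 10 μM Pi. WT seedlings kept at 250 μM Pi, again with 2 libraries for each organ, serve as the background for the same organ contrast. The labels do not give their age at harvest. Starved seedlings may therefore have been older as well as short of Pi, and Pi supply, age and any transfer between plates cannot be told apart. Each library was made from a pool of seedlings, and p-values measure the spread between such pools. In lines 12 and 4 a constitutive viral promoter drives PHT5;1-GFP, a vacuolar Pi transporter fused to a fluorescent protein. Their starved shoots and roots give the same contrast in other plants. All 36 libraries, those of the lines included, also enter the fit that estimates the spread behind the WT p-values.

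Roots take Pi from the medium through plasma membrane transporters of the PHT1 family, PHO1 exports it into the xylem, and shoots spend most of it in photosynthesis, nucleic acids and membrane lipids. When Pi runs short, the transcription factor PHR1 activates a set of starvation genes through a short promoter element named P1BS, SPX proteins restrain PHR1 while Pi is plentiful, and the non-coding RNAs IPS1 and AT4 blunt the microRNA that keeps the Pi regulator PHO2 low. Starved plants secrete phosphatases, exchange phospholipids for galactolipids and sulfolipids, and lengthen their root hairs.

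Values are RPKM, the reads of a gene scaled to the kilobases of its exons and to the mapped reads of its library. A gene was tested where its mean over the 12 WT libraries of the series reached 0.25 RPKM, which 21140 genes did and 7356 did not. A log2 difference is that of RPKM + 0.25, shoot minus root, and it understates the change of genes near 0. A gene was called where limma gave an adjusted p under 0.05 and the mean RPKM of the organs differed at least 2-fold. Library totals estimated from the steps of the RPKM values were 29.3 and 31.6 M reads in shoots, against 35.8 and 27 M reads in roots. In roots the estimates are less certain, since 418 and 424 genes pointed to them and 349 and 332 to the next best totals. The estimate for the first root library also lies above the range of mapped reads per library that the paper states. At least 1 RPKM was reached by 17078 and 17370 genes in shoots and by 18926 and 18937 genes in roots. Log2 values of replicates correlated at 0.98 in shoots and 0.99 in roots, across genes, which are not independent of each other. Expression was concentrated in shoots, where the 10 most abundant genes held 13.2 and 11.5% of all RPKM, against 4.07 and 4.20% in roots.

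The organs matched their labels. All 11 markers of green shoot tissue were called higher in shoots, and their summed RPKM was 59106 and 50834 in shoots, against 871 and 834 in roots, where 1 and 2 of them were at 0. All 11 root markers were called higher in roots, with sums of 7.56 and 5.54 in shoots, against 1214 and 1003 in roots, and none was at 0 in a shoot library. The Pi uptake gene *PHT1;1* made up most of the root sum. Markers were picked from the gene lists below with earlier results of these data known, so they check the labels only. The same shoot lists hold *CER4* and *KNAT1*, which were higher in roots, and the Pi transport and iron lists hold members higher in shoots. The second shoot library stood apart in that it belongs to 5 second-replicate shoot libraries that share 383 genes seen in no first-replicate shoot or root library. It held 359 of these genes, which made up 0.28% of its RPKM, and none of the 145 that were tested was called in the organ contrast. The entries of the MIR399 and MIR827 precursors are touched by this, were at 0 in both root libraries, and were not tested.

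After 3 days of Pi starvation, 3317 genes were higher in shoots (15.7% of the genes tested) and 8432 were higher in roots (39.9%), so that 55.6% were called in either direction. A 10-fold difference was reached by 1147 genes in favour of shoots and 1994 in favour of roots, and a 100-fold difference by 172 and 288 genes. Of the genes higher in shoots, 203 were at 0 in both root libraries, and 432 of those higher in roots were at 0 in both shoot libraries. RPKM of a library share a common total, and the median of all genes lay at a log2 difference of -0.72. The 8 reference genes used to scale plant RNA measurements lay at the same place, with a median of -0.71 and values between -1.21 (*ACT2*) and -0.37 (*UBC21*). With libraries rescaled by their median ratio, which lifts the median of all genes by 0.67, 4717 genes were higher in shoots and 4734 in roots, so that shoots took 49.9% of the calls in place of 28.2%. All 3317 shoot calls and 4734 of the 8432 root calls were kept, and 0 changed direction. A call that this rescaling removed is given as lost on rescaling. In bulk RNA, fewer cells of a type and less RNA per cell cannot be told apart.

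**Figure D1:**
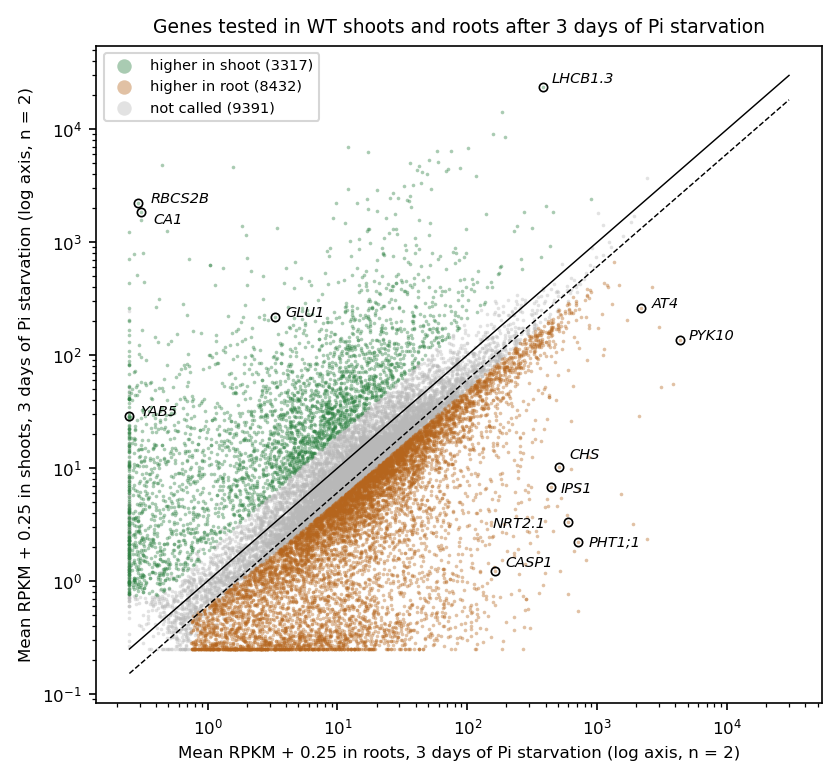
Mean RPKM + 0.25 in WT shoots (vertical, log axis, n = 2) against WT roots (horizontal, log axis, n = 2) after 3 days of Pi starvation, 1 point for each of the 21140 genes tested, coloured by call. The solid line marks equal RPKM and the dashed line the median log2 difference of -0.72; the labelled genes run from *LHCB1.3* at the upper edge to *PHT1;1* at the lower right.

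The largest shoot excess was that of the photosynthetic apparatus. All 35 genes of the light reactions were higher in shoots, with a median log2 difference of 6.37, and together they held 20.5 and 18.3% of the RPKM in shoots, against 0.279 and 0.269% in roots. The most abundant gene of the shoot was *LHCB1.3* (AT1G29930), which encodes a chlorophyll-binding protein of the photosystem II antenna. It had 25773 and 21618 RPKM in shoots, against 395 and 367 in roots (log2 5.95, SE 0.135, adjusted p = 2.6e-21 from limma). Its neighbour *LHCB1.1* had 4862 and 4381 RPKM in shoots, against 1.26 and 1.39 in roots. Antenna genes of this family are near-identical, so reads may have been split among *LHCB1.1*, *LHCB1.2* and *LHCB1.3*, and their ratios to each other are uncertain. *LHB1B1* (AT2G34430), another antenna gene, showed the largest difference of any gene with 10 RPKM or more, at 5535 and 4157 RPKM in shoots, against 0.166 and 0.221 in roots (log2 13.40, SE 0.358). Its neighbour *LHB1B2* (AT2G34420) had 211 and 156 RPKM in roots, and reads may have been split between these 2 genes as well, so the size of this difference is uncertain. The smallest difference of the list was that of *PSBS*, which encodes the photosystem II protein of energy quenching, at 762 and 748 RPKM in shoots, against 26.2 and 27 in roots (log2 4.82). Even this member was 28.4-fold higher in shoots.

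All 24 genes of carbon fixation and photorespiration were higher in shoots as well, with a median log2 difference of 5.85. *RBCS2B*, a small subunit gene of Rubisco, had 2581 and 1898 RPKM in shoots, against 0 and 0.0862 in roots, whereas *RBCS1A*, the most abundant gene of that family, had 9686 and 8424 in shoots, against 159.7 and 157 in roots. The copies *RBCS1B*, *RBCS2B* and *RBCS3B* are near-identical, and so are the glycolate oxidase genes *GOX1* and *GOX2*. *CA1*, a carbonic anhydrase of the chloroplast, had 1909 and 1830 RPKM in shoots, against 0.0696 and 0.0462 in roots. Root levels thus differed widely among genes that were all abundant in shoots. The least different members were *TKL1*, a transketolase, with 629 and 612 RPKM in shoots, against 188 and 177 in roots (log2 1.77), and *GLYK*, the last enzyme of photorespiration, with 149 and 146 in shoots, against 32.9 and 36.1 in roots (log2 2.09). Both kept a substantial level in roots.

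Other genes with the largest shoot excess were outside photosynthesis. *TGG1*, a myrosinase that splits glucosinolates in leaves, had 1413 and 1710.0 RPKM in shoots, against 0.0304 and 0.0807 in roots (log2 12.32, SE 0.346). *GER3*, a germin-like protein, had 790.5 and 631 RPKM in shoots and was listed at 0 in both root libraries. AT1G23130, annotated as a polyketide cyclase and lipid transport protein, was likewise at 0 in roots and had 1169 and 1305 RPKM in shoots. Both genes thus separated the organs completely. *CA2*, *FBA5*, which encodes a fructose-bisphosphate aldolase, and *ECS1* completed the largest 10, with log2 differences of 11.28, 11.52 and 11.36.

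Of the 24 genes for wax, epidermal identity and stomata, 22 were tested, 20 were higher in shoots and 1 was higher in roots (median log2 3.68). *CER6*, a condensing enzyme of wax synthesis, had 132 and 121 RPKM in shoots, against 1.56 and 1.32 in roots, and *LTP1*, a lipid transfer protein of the epidermis, had 928 and 734, against 9.69 and 6.46. *FAMA*, which controls the last step of guard cell formation, had 10.9 and 11.4 RPKM in shoots and was at 0 in both root libraries. The exception was *CER4*, an alcohol-forming reductase of fatty acids, with 0.14 and 0.0742 RPKM in shoots, against 17.5 and 17.2 in roots (log2 -5.63, SE 0.268). Among the 8 tested regulators of shoot development, 6 were higher in shoots and 1 in roots. The leaf polarity gene *YAB1* had 25.9 and 17.5 RPKM in shoots and was at 0 in both root libraries, and so was its relative *YAB5*, with 29.6 and 27.7 RPKM in shoots. *KNAT1*, a homeobox gene known from the shoot meristem, was lower in shoots, at 2.82 and 2.54 RPKM, against 9.96 and 11.4 in roots (log2 -1.90, SE 0.189). *AS1*, a leaf regulator, differed by less than its error, with 18.1 and 14.8 RPKM in shoots and 16.6 and 14.4 in roots (log2 0.08, SE 0.139).

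The most abundant gene of the root was *PYK10*, a beta-glucosidase of root endoplasmic reticulum bodies, with 144 and 125 RPKM in shoots, against 4302 and 4446 in roots (log2 -5.02, SE 0.127). *DR4*, annotated as drought-repressed, had 59.6 and 51.2 RPKM in shoots, against 4061 and 3667 in roots, and the cell wall protein gene *EXT3* had 52.0 and 52.7, against 3108 and 3130.0. These 3 genes were lower in shoots by 32.4-, 69.7- and 59.6-fold. Not all abundant root genes were called: the dehydrin gene AT1G54410 had 1766 and 1670.4 RPKM in shoots and 2022 and 1826 in roots (log2 -0.16, SE 0.18), and *GRP7*, a clock-regulated RNA-binding protein, had 3980.1 and 3406 in shoots and 2517 and 2329 in roots (log2 0.60), which is under 2-fold, but it was called higher in shoots on rescaling (log2 1.3). AT2G01021 varied too much between replicates for a firm value, with 522 and 275 RPKM in shoots and 1899.5 and 3380.2 in roots (log2 -2.74, SE 1.00), and its call was lost on rescaling, without the second shoot library (-2.28) and without the second root library (-2.32).

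The largest root excess fell on small secreted proteins and peroxidases. AT4G12520, a lipid transfer-like protein, had 0.399 and 0.185 RPKM in shoots, against 706 and 712 in roots (log2 -10.38, SE 0.227, adjusted p = 1.5e-21 from limma). Its relatives AT4G12510, AT5G46890 and AT5G46900 followed, with log2 differences of -9.54, -10.07 and -9.29, and the first 2 of them were at 0 in both shoot libraries. The peroxidases AT1G05250 and AT3G01190 had 0.0927 to 0.631 RPKM in shoots and 273 to 624 in roots. The other members of the largest 10 were *GRP9* (-9.98), AT1G64590 (-9.46), the Pi transporter gene *PHT1;2* (-9.34) and *MLP328* (-9.21). Of 57 tested genes annotated as peroxidases, 3 were higher in shoots and 46 in roots (median log2 -5.04), and of 42 annotated as extensins, 10 and 27 were (median -4.90). Over all genes tested these shares were 15.7% and 39.9%.

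All 16 genes of the endodermis were higher in roots, with a median log2 difference of -5.75. *CASP1*, which builds the Casparian strip, had 1.16 and 0.777 RPKM in shoots, against 174 and 155 in roots, and *PER64*, the peroxidase of that strip, had 0.0554 and 0.0515, against 59.9 and 57.1. *CYP86A1*, a fatty acid hydroxylase of suberin synthesis, had 2.47 and 1.23 RPKM in shoots, against 144 and 132 in roots (log2 -6.10, SE 0.23). The smallest difference was that of the suberin gene *FAR1*, at 9.01 and 9.29 RPKM in shoots, against 35.2 and 35.9 in roots (log2 -1.93). All 28 root hair genes were higher in roots too, with a median of -6.20. *RHD6*, the transcription factor that starts hair formation, had 0.0487 and 0.0452 RPKM in shoots, against 20.9 and 21.6 in roots. *RSL4*, which sets hair length, had 0.0606 and 0.0563 RPKM in shoots, against 10.8 and 9.86 in roots. *XTH14*, a wall-remodelling enzyme of hairs, had 0.313 and 0.174 RPKM in shoots, against 157 and 129.6 in roots (log2 -8.19, SE 0.301).

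Among 11 regulators of root development, 10 were higher in roots (median log2 -3.21), and 9 on rescaling. The stem cell factor *PLT1* was at 0 in shoots and had 3.99 and 4.53 RPKM in roots, and *SHR*, which specifies the endodermis, had 5.33 and 4.31 RPKM in shoots, against 16.2 and 19.6 in roots. *SCR*, the partner of *SHR*, had 7.41 and 5.94 RPKM in shoots and 12.9 and 13.4 in roots, which fell short of 2-fold (log2 -0.96, SE 0.126) except without the first shoot library (-1.12) or the first root library (-0.99). The 7 tested genes of the root triterpene clusters were all higher in roots, by -3.83 to -6.44 on the log2 scale. *THAS*, the thalianol synthase, had 0.826 and 0.679 RPKM in shoots, against 41.0 and 49.4 in roots. Of 9 genes of cytokinin and strigolactone synthesis and transport, 8 were higher in roots, among them the cytokinin exporter *ABCG14*, with 1.07 and 0.863 RPKM in shoots, against 29.3 and 34.5 in roots. *D27*, the isomerase of the first step of strigolactone synthesis, went the other way, with 4.23 and 4.28 RPKM in shoots, against 0.156 and 0.381 in roots (log2 3.15, SE 0.256).

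**Figure D2:**
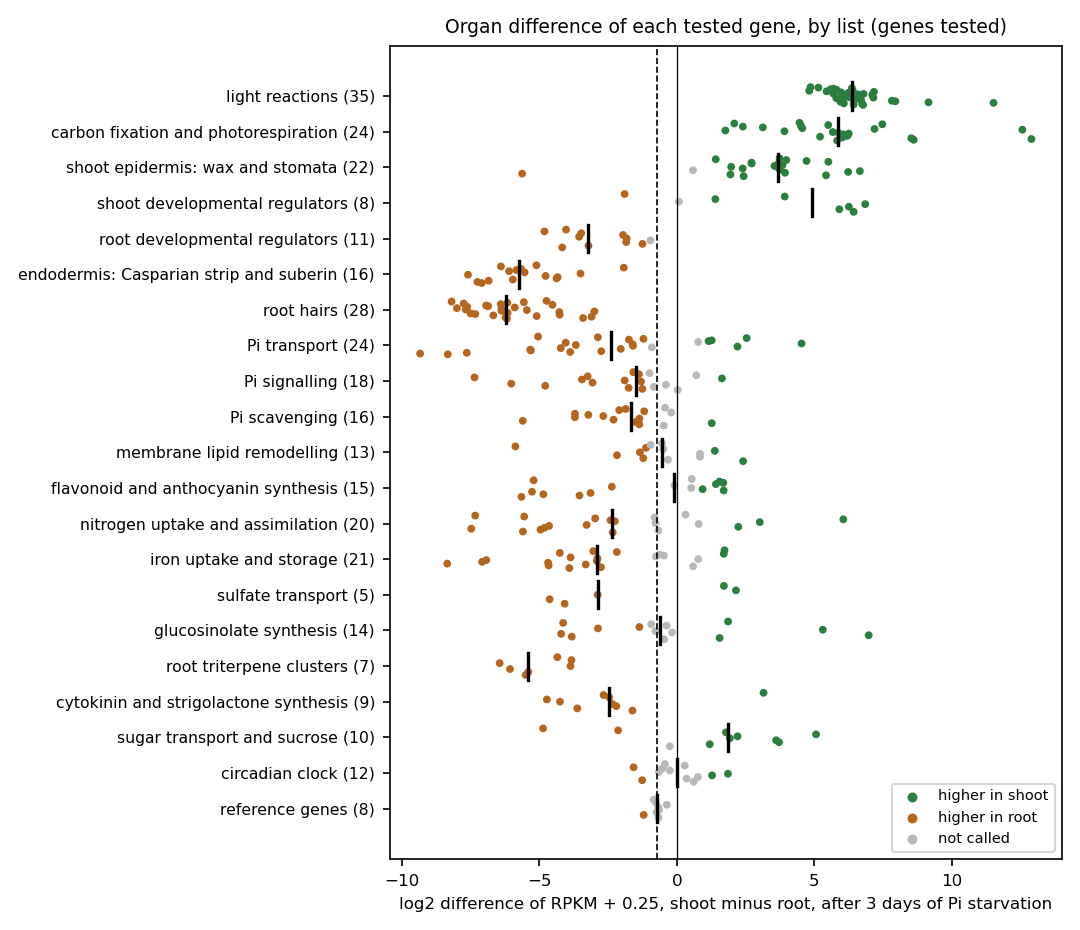
Log2 difference of RPKM + 0.25, shoot minus root, after 3 days of Pi starvation (n = 2 libraries for each organ), 1 point for each tested gene of 21 gene lists, coloured by call, with the number tested in brackets. Black bars mark list medians and the dashed line the median of all genes at -0.72; the lists run from the light reactions at the top (median 6.37) to the reference genes at the bottom (median -0.71).

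Of 24 tested Pi transport genes, 5 were higher in shoots and 17 in roots, beside 15.7% and 39.9% of all genes, with a median log2 difference of -2.39. These counts became 6 and 15 on rescaling. *PHT1;1* (AT5G43350), a high-affinity uptake transporter, had 1.99 and 1.92 RPKM in shoots, against 788 and 638 in roots (log2 -8.33, SE 0.238, adjusted p = 1.4e-19 from limma). *PHT1;2* (AT5G43370) had 0.0839 and 0 RPKM in shoots, against 189.8 and 183 in roots, and *PHT1;3* (AT5G43360) had 0 and 0.0404, against 60.7 and 47.1. These 3 genes are near-identical neighbours on chromosome 5, and reads may have been shared among them. *PHT1;4*, the other main uptake transporter, was less confined to roots, with 14.8 and 12.7 RPKM in shoots, against 205 and 206 in roots (log2 -3.88). *PHT1;8* and *PHT1;9* had at most 0.108 RPKM in shoots, against 9.99 to 13.8 in roots. *PHF1*, which carries PHT1 proteins out of the endoplasmic reticulum, differed less, at 23.3 and 23.8 RPKM in shoots, against 101 and 94.4 in roots (log2 -2.04). *PHO1*, the xylem loader, had 7.91 and 7.55 RPKM in shoots, against 151 and 146 in roots (log2 -4.22, SE 0.142). *PHO1;H1*, its closest relative, had 9.07 and 14.5 RPKM in shoots and 19.3 and 24.6 in roots, which did not reach 2-fold (log2 -0.91, SE 0.173) except without the second shoot library (-1.24) or the first root library (-1.08).

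The Pi transport genes higher in shoots were *PHT2;1*, *PHT4;1*, *PHT4;4* and *PHT4;5*, which encode transporters of plastids, and *PHT5;3*, of the vacuole. *PHT4;1*, a thylakoid transporter, had 81.7 and 88.5 RPKM in shoots, against 3.60 and 3.25 in roots (log2 4.54, SE 0.144). *PHT4;2*, a transporter of root plastids, had 0.16 and 0.278 RPKM in shoots, against 6.70 and 8.19 in roots (log2 -4.04), so that members of the PHT4 family stood on opposite sides. The vacuolar transporters were also unlike each other. *PHT5;1* had 17.5 and 17.9 RPKM in shoots, against 41.1 and 41.7 in roots (log2 -1.21, SE 0.189), a call lost on rescaling, whereas *PHT5;3* had 9.21 and 10.4 in shoots, against 1.27 and 1.71 in roots (log2 2.54, SE 0.161). *PHT5;2* was not tested, at 0.13 RPKM or less in all 4 libraries.

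Of 18 tested Pi signalling genes, 1 was higher in shoots and 12 in roots (median log2 -1.48), beside 15.7% and 39.9% of all genes. These counts became 2 and 9 on rescaling. *PHR1* itself differed by less than its error, with 28.1 and 31.7 RPKM in shoots and 28.1 and 30.2 in roots (log2 0.03, SE 0.0803). Several other genes of the list differed more. *IPS1* had 5.72 and 7.36 RPKM in shoots, against 435 and 441 in roots (log2 -6.02, SE 0.424), and *AT4* (AT5G03545), the more abundant of these non-coding RNAs, had 261 and 259, against 2333 and 2038 (log2 -3.07, SE 0.258). *SPX3* had 1.79 and 3.04 RPKM in shoots, against 69.8 and 72.5 in roots (log2 -4.79, SE 0.407). *SPX1* was closer, at 156 and 165 RPKM in shoots, against 569 and 516 in roots (log2 -1.75), and *SPX2*, at 42.1 and 53.4 against 84.8 and 84.8, fell short of 2-fold except without the second shoot library (-1.01 against -0.83). *PHO2*, a ubiquitin-conjugating enzyme that removes Pi transporters, had 30.9 and 32.2 RPKM in shoots, against 79.9 and 76.7 in roots (log2 -1.30, SE 0.102), and this call was lost on rescaling. *ZAT6*, a zinc finger regulator of Pi homeostasis, was the member higher in shoots, with 69.5 and 72.3 RPKM, against 23.5 and 21.7 in roots (log2 1.64, SE 0.265, adjusted p = 4.7e-06 from limma). *HRS1*, which acts in root growth under low Pi, had 0.193 and 0.102 RPKM in shoots, against 66.0 and 63.1 in roots (log2 -7.36).

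The promoters of several of these genes hold P1BS elements. The letters GNATATNC, which read the same on the opposite strand, were searched in the 500 bases before the gene start in the RefSeq annotation of TAIR10.1. They were found before 10.9% of 21055 genes tested, 11.6% of those higher in shoots and 11.4% of those higher in roots, so that the share was near the background in either organ. The windows below show the element, in capitals, in some of the starvation genes described in the text, chosen to include genes higher in either organ, each read 5′ to 3′ on the strand of its gene.
AT4, chr5:894545-894574: tttggtaattgGCATATTCcttttagaaga
SPX3, chr2:18606186-18606215: tattagagaccGAATATGCcagaggatttg
SPX3, chr2:18606309-18606338: gctaaagctaaGCATATCCgctttcatatt
PHT1;2, chr5:17415645-17415674: aatataaatatGGATATACccttaagattc
PHT1;3, chr5:17409120-17409149: aaataaaatgtGGATATACccttaagattc
PECP1, chr1:6092371-6092400: ataaataggtgGAATATTCtttttttttat
ZAT6, chr5:1217415-1217444: agagctctctaGAATATTCttaagtgataa
AT4, SPX3, PHT1;2 and PHT1;3 lie on the plus strand, and PECP1 and ZAT6 on the minus strand. PHT1;2 and PHT1;3 carry the same 8 letters, GGATATAC, 42 and 393 bases before their gene starts, and PECP1, higher in roots, and ZAT6, higher in shoots, also share theirs, GAATATTC. Among other genes searched, 1 match each lay before *NPC4*, *SQD2* and *PS2*, and 4 lay before *GDPD1*, which was not called in the organ contrast. No match was found in this window before *IPS1*, *SPX1*, *PHT1;1*, *PHO1;H1*, *PHR1*, *OCT1*, *G3PP1*, *MGD3*, *RSL2* or *SUC1*. A match is a description of the letters and not a bound site.

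Of 16 tested genes that release Pi from organic compounds, 1 was higher in shoots and 12 in roots (median log2 -1.68), beside 15.7% and 39.9% of all genes. On rescaling, 8 of these root calls were kept. *PECP1* (AT1G17710), a phosphatase of phosphoethanolamine and phosphocholine, had 6.57 and 10.9 RPKM in shoots, against 108 and 119 in roots (log2 -3.70, SE 0.443), and its relative *PS2* had 18.1 and 30.7, against 221 and 223 (log2 -3.22, SE 0.466). Both shoot libraries lay below both root libraries by a wide margin, though the shoot replicates of *PS2* differed from each other. *RNS1*, a secreted ribonuclease, had 1.11 and 0.848 RPKM in shoots, against 15.7 and 15.7 in roots, and the acid phosphatase gene *PAP22* had 0.125 and 0.155, against 20.2 and 17.3 (log2 -5.60). The more abundant acid phosphatase gene *PAP17* differed less, with 78.0 and 76.7 RPKM in shoots, against 223 and 215 in roots (log2 -1.5), and its call and that of *PAP26* (log2 -1.36) were lost on rescaling. *GDPD1*, a glycerophosphodiester phosphodiesterase, differed by little more than its error, with 189 and 199 RPKM in shoots and 231 and 216 in roots (log2 -0.21, SE 0.171). *PAP14* was the member higher in shoots, at 1.98 and 3.05 RPKM, against 0.813 and 0.945 in roots (log2 1.27, SE 0.504), but this call was lost when any 1 of the second shoot library (log2 0.99), the first root library (1.18) or the second root library (1.35) was left out. A pseudocount of 0.1 RPKM also removed the call of *PAP14* (1.39).

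In membrane lipid remodelling, 2 of the 13 genes tested were higher in shoots and 5 in roots (median log2 -0.54), which is near the 15.7% and 39.9% of all genes, and on rescaling these counts became 4 and 2. *NPC4*, a phospholipase that splits phospholipids, stood furthest towards roots, with 0.744 and 0.725 RPKM in shoots, against 58.0 and 56.9 in roots (log2 -5.87, SE 0.22). *DGD2*, a galactolipid synthase, had 4.65 and 6.33 RPKM in shoots, against 26.0 and 24.8 in roots (log2 -2.18). *MGD1*, the chloroplast galactolipid synthase, was higher in shoots, at 58.5 and 65.5 RPKM, against 11.8 and 11.1 in roots (log2 2.41, SE 0.0912). *MGD3*, the isoform known for starved tissue, had 32.1 and 43.6 RPKM in shoots, against 84.3 and 91.0 in roots (log2 -1.22, SE 0.183), a call lost on rescaling. In sulfolipid synthesis, *UGP3*, which makes the UDP-glucose, was higher in shoots, at 59.4 and 64.4 RPKM, against 22.1 and 25.1 in roots, whereas *SQD2*, which acts last, had 109 and 133 in shoots, against 289 and 323 in roots (log2 -1.34), a call lost on rescaling. The middle enzyme, *SQD1*, had 123 and 158 RPKM in shoots and 74.8 and 80.0 in roots, under 2-fold (log2 0.84), and it was called on rescaling and without the first shoot library (1.02).

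**Figure D3:**
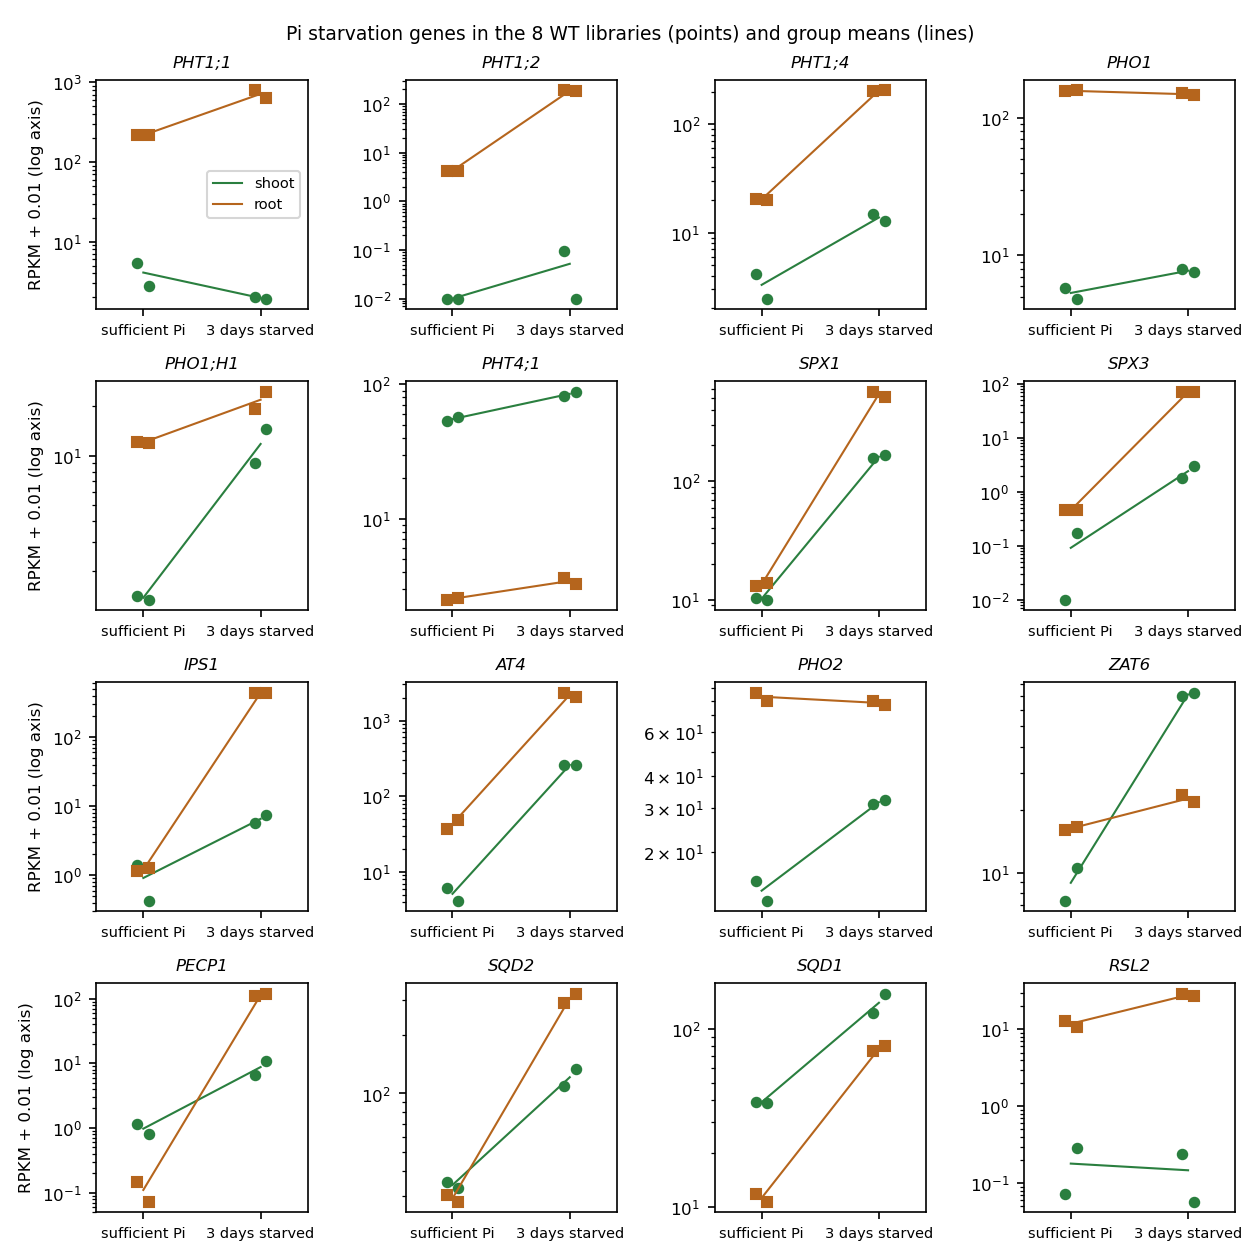
RPKM + 0.01 (log axis) of 16 genes in the 8 WT libraries, at sufficient Pi and after 3 days of Pi starvation, with shoots as circles and roots as squares; points are single libraries and lines join the group means (n = 2). The shoot and root lines of *AT4* run side by side, those of *IPS1* part after starvation, and those of *ZAT6*, *PECP1* and *SQD2* cross.

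Nitrogen, sulfate and iron genes included members higher in either organ. Over all genes tested, 15.7% were higher in shoots and 39.9% in roots. Of 20 tested nitrogen genes, 3 were higher in shoots, a share near that of all genes, and 12 in roots (median log2 -2.37). *NRT2.1*, a high-affinity nitrate transporter, had 3.32 and 2.85 RPKM in shoots, against 669 and 524 in roots (log2 -7.48, SE 0.19). *GLU1*, a ferredoxin-dependent glutamate synthase, was higher in shoots, at 206 and 232 RPKM, against 2.84 and 3.24 in roots. Its relative *GLU2* had 8.58 and 8.18 RPKM in shoots, against 67.1 and 67.6 in roots. Genes for the same reaction thus stood on opposite sides. So did the glutamine synthetases *GLN2*, of plastids, and *GLN1;2*, of the cytosol. *GLN2* had 691 and 711 RPKM in shoots, against 84.7 and 88.0 in roots, whereas *GLN1;2* had 127 and 132, against 789 and 604. Of 21 tested iron genes, 2 were higher in shoots and 14 in roots (median -2.91). *F6PH1*, which makes coumarins that mobilise iron, had 0.151 and 0.117 RPKM in shoots, against 135 and 116 in roots (log2 -8.35, SE 0.487), and *FER4* and *OPT3*, a ferritin and a phloem transporter, were the members higher in shoots (log2 1.71 and 1.74). Of the 5 sulfate transporter genes, 2 were higher in shoots and 3 in roots. *SULTR2;1*, of the vasculature, had 54.0 and 62.6 RPKM in shoots, against 12.2 and 13.7 in roots, whereas *SULTR1;2*, of root uptake, had 1.5 and 1.82, against 48.3 and 45.2.

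Glucosinolate and flavonoid synthesis showed the same division within a pathway. Of 14 glucosinolate genes, 4 were higher in shoots and 5 in roots (median log2 -0.62), beside 15.7% and 39.9% of all genes. These counts became 4 and 4 on rescaling. *CYP79F1*, which starts the synthesis of aliphatic glucosinolates, had 51.6 and 47.0 RPKM in shoots, against 0.13 and 0.156 in roots (log2 6.98, SE 0.294), and its near-identical neighbour *CYP79F2* had 2.63 and 1.92, against 46.0 and 45.9 (log2 -4.21, SE 0.287). The 2 copies, whose reads may have been partly shared, were thus separated by organ. *MAM1* and *MAM3*, which lengthen the side chain, were likewise opposed (log2 1.56 and -3.82), as were the regulators *MYB29* of aliphatic and *MYB34* of indolic glucosinolates (log2 5.31 and -4.14). Of 15 tested flavonoid genes, 5 were higher in shoots and 7 in roots (median -0.09). *CHS*, which starts flavonoid synthesis, had 8.78 and 11.2 RPKM in shoots, against 524 and 496 in roots (log2 -5.65), and *FLS1*, which makes flavonols, had 4.38 and 3.58, against 164 and 160.2 (log2 -5.27). *DFR*, which leads to anthocyanins, was higher in shoots, at 4.19 and 6.45 RPKM, against 1.38 and 1.48 in roots (log2 1.70, SE 0.35). The anthocyanin gene *LDOX* was at the edge of the 2-fold limit, with 3.69 and 4.36 RPKM in shoots, against 1.73 and 2.24 in roots (log2 0.94), and it was no longer called without the second shoot library (0.82) or the first root library (0.77). A pseudocount of 0.1 RPKM also removed the call of *LDOX* (0.99).

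**Figure D4:**
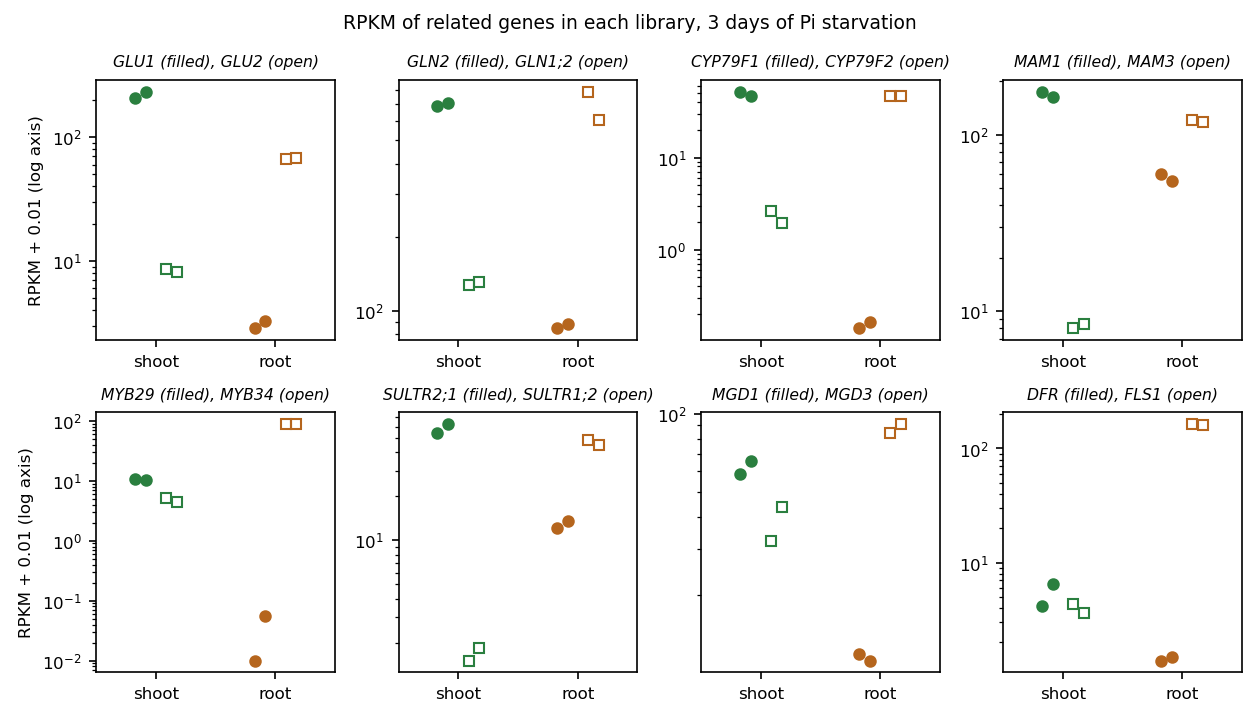
RPKM + 0.01 (log axis) of 8 pairs of related genes in each WT library after 3 days of Pi starvation, shoots left and roots right, with 1 gene of a pair as filled circles and the other as open squares. In every panel the filled gene is higher in shoots and the open gene higher in roots, by log2 differences from 6.98 (*CYP79F1*) to -5.27 (*FLS1*).

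Sugar transport favoured shoots, where 7 of 10 genes were higher and 2 were lower (median log2 1.86), beside 15.7% and 39.9% of all genes. *TPT*, which exports triose phosphates from the chloroplast in exchange for Pi, had 764 and 761 RPKM in shoots, against 22.5 and 22.6 in roots (log2 5.06, SE 0.101), and *SWEET11*, a sucrose exporter of leaf veins, had 156 and 190.3, against 13.9 and 12.0. The sucrose synthase *SUS4* was lower in shoots, at 0.777 and 0.721 RPKM, against 28.7 and 29.0 in roots (log2 -4.87). *SUC1*, a sucrose importer, was not called, with 47.3 and 57.3 RPKM in shoots and 59.9 and 64.4 in roots (log2 -0.25, SE 0.168). The 12 clock genes had a median of 0.02, with 2 called in each direction: *PRR5* and *PRR7* higher in shoots, and *LHY* and *ELF4* higher in roots. The call of *ELF4* was lost on rescaling, where 5 clock genes were higher in shoots and 1 in roots, so that this balance depends on the scaling.

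Other gene families were counted by their annotation, beside 15.7% shoot and 39.9% root calls among all genes. Cytochrome P450 genes split into 43 higher in shoots and 98 higher in roots of 181 tested, glutathione S-transferases into 9 and 30 of 55, and WRKY factors into 11 and 31 of 61. On rescaling, the counts of these families became 59 and 86, 10 and 24, and 17 and 29. Of 42 tested transporters annotated as nodulin MtN21, 5 were higher in shoots and 26 in roots, and on rescaling 8 and 23 were. Of 245 pentatricopeptide repeat genes, which process organelle RNA, 31 were higher in shoots and 62 in roots (median log2 -0.39), and on rescaling these counts turned over to 52 and 9. The direction of that family therefore depends on the scaling.

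The organ contrast was then set beside that of WT seedlings at sufficient Pi, which shares no library with it. At sufficient Pi, 3230 genes were higher in shoots (15.3%) and 7597 in roots (35.9%). Of the genes higher in starved shoots, 2880 were also higher in shoots at sufficient Pi, which is 86.8% of the starved list and 89.2% of the other, and 6717 were higher in roots at both supplies, 79.7% and 88.4% of the lists. Across the genes tested, which are not independent replicates, the 2 sets of log2 differences correlated at 0.96 (Pearson). Another 1433 genes were called only after starvation and 881 only at sufficient Pi without the difference itself passing a test. In line 12, 98.3% of the genes called higher in WT shoots and 99.3% of those called higher in WT roots had the same sign, and in line 4, 98.1% and 99.3% did.

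The change of the organ difference was tested as an interaction, the log2 difference after starvation minus that at sufficient Pi. It was positive, towards the shoot, for 1124 genes (5.32%) and negative, towards the root, for 1947 genes (9.21%). Of these genes, 1492 were called for organ at both supplies and 549 at neither. Of the 1947 that moved towards the root, 808 rose in roots on starvation and 1209 fell in shoots, and of the 1124 that moved towards the shoot, 775 rose in shoots and 359 fell in roots, where a gene can count in both groups. With libraries rescaled by their median ratio, 1613 genes moved towards the shoot and 1883 towards the root, so that the positive share was 46.1% in place of 36.6%. Leaving out any 1 of the 8 WT libraries, of shoots or roots, lowered both counts. Towards the root they were 1107 to 1678, with the fewest without the second root library at sufficient Pi, and 1242 and 1289 without the first or second starved root library. Towards the shoot they were 723 to 1040, with the fewest without the first root library at sufficient Pi.

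**Figure D5:**
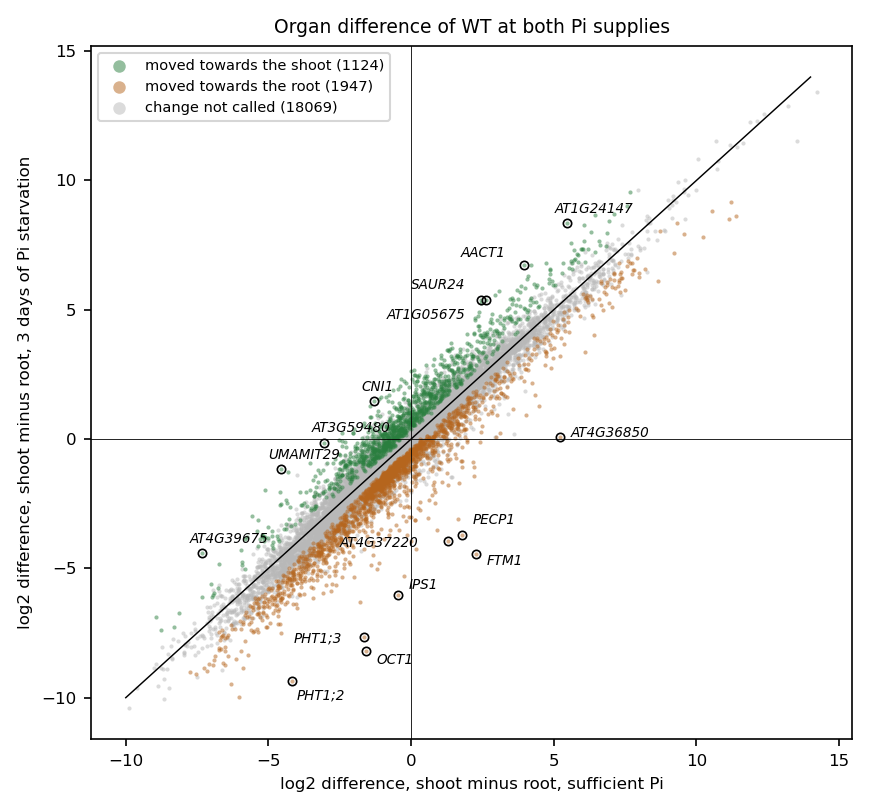
Log2 difference of RPKM + 0.25, shoot minus root, after 3 days of Pi starvation (vertical) against the same at sufficient Pi (horizontal), 1 point for each of 21140 genes tested, n = 2 libraries for each organ and supply. The diagonal marks no change, coloured points passed the test of the interaction (1124 above and 1947 below the diagonal), and the 16 labelled genes include *FTM1* (-6.73) and *UMAMIT29* (3.38).

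Of the Pi lists, 9 of 24 transport genes, 7 of 16 scavenging genes, 5 of 18 signalling genes and 6 of 13 lipid remodelling genes moved towards the root, beside 9.21% of all genes. In the same lists 3 transport, 0 scavenging, 3 signalling and 0 lipid remodelling genes moved towards the shoot, beside 5.32% of all genes. Of these, *PHO1* (0.61) no longer passed without the filter on low values, without the variance trend, in a fit of the 12 WT libraries alone or without most single libraries. Nor did it pass with a pseudocount of 0.1 RPKM or with the numbers as a replicate block. *PHT4;5* was lost without several single libraries (0.50 to 0.57). Towards the root, *HRS1* was lost with a pseudocount of 1 RPKM (-0.44) and without the second starved shoot library (-0.93). *PHT1;4* was lost without the first shoot library at sufficient Pi (-0.95). *OCT1*, an organic cation transporter, had 0.055 and 0.0682 RPKM in starved shoots, against 92.4 and 89.9 in starved roots, but at most 0.403 in shoots and 1.22 in roots at sufficient Pi (interaction -6.61, SE 0.391, adjusted p = 2.2e-10 from limma). *IPS1* was low in both organs at sufficient Pi, with 1.39 and 0.414 RPKM in shoots and 1.12 and 1.25 in roots, and its interaction was -5.57 (SE 0.599). *PHT1;3* and *PHT1;2*, with 0.474 and 0.599 RPKM and with 4.22 and 4.25 RPKM in roots at sufficient Pi, moved by -5.99 and -5.17. *PECP1* was low in both organs at sufficient Pi but called higher in shoots, with 1.13 and 0.798 RPKM, against 0.138 and 0.0616 in roots (interaction -5.49, SE 0.627). It rose in both organs on starvation, by log2 2.86 in shoots and 8.35 in roots. Not every strongly induced gene moved. *AT4* had 6.13 and 4.15 RPKM in shoots and 36.9 and 49.3 in roots at sufficient Pi, and its organ difference changed by -0.05 (SE 0.364), and the differences of *G3PP1*, a glycerol 3-phosphate permease, and of *PAP17* changed by 0.04 (SE 0.302) and 0.04 (SE 0.283).

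Some Pi genes moved towards the shoot. *ZAT6* had 7.32 and 10.5 RPKM in shoots and 16.0 and 16.5 in roots at sufficient Pi, and its interaction was 2.51 (SE 0.375, adjusted p = 9.6e-05 from limma), but in lines 12 and 4 it was not higher in starved shoots (log2 -0.51 and -0.38). *PHO1;H1* had 1.4 and 1.32 RPKM in shoots and 12.1 and 12.0 in roots at sufficient Pi (interaction 2.03, SE 0.244), and *PHO2* had 15.3 and 12.8 in shoots and 86.0 and 79.8 in roots (interaction 1.24, SE 0.145). Both rose in shoots on starvation (log2 2.87 and 1.16). *SUC1* moved by 2.17 and *GLYK* by 1.92, and here the root levels at sufficient Pi, 153 and 152 RPKM and 158 and 140.4 RPKM, were above those of starved roots.

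Cell type lists moved in part. Of 28 root hair genes, 14 moved towards the root, among them *RSL2*, a hair growth factor, with 0.228 and 0.047 RPKM in starved shoots, against 29.0 and 27.1 in starved roots, and 13 and 10.7 in roots at sufficient Pi (interaction -1.34, SE 0.341), which no longer passed without the second starved shoot library (-0.999), the second shoot library at sufficient Pi (-0.96) or the second root library at sufficient Pi (-1.21), with a pseudocount of 0.1 RPKM (-1.42) or in a fit of the 12 WT libraries alone (adjusted p = 0.0717 from limma). Of 16 endodermis genes, 6 moved towards the root, and *CYP86A1*, with 79.7 and 75.1 RPKM in roots at sufficient Pi, was one of them (-1.49, SE 0.325), whereas *CASP1* did not pass the test (0.52, SE 0.429). Of 35 light reaction genes, 12 moved towards the root and 0 towards the shoot, and of 24 of carbon fixation 11 and 2 did, and the other members did not pass the test. The near-identical copies *LHCB1.2*, *LHCB1.3*, *RBCS1B* and *RBCS3B* are among these genes. *RBCS1A* had 83.8 and 57.9 RPKM in roots at sufficient Pi, below the 159.7 and 157 of starved roots, at a shoot level of 10189 and 9635 (interaction -1.32, SE 0.185). Of 14 glucosinolate genes, 6 moved towards the shoot and 0 towards the root, and of 42 nodulin MtN21 transporters 11 and 2 did (median interaction 0.10), beside 5.32% and 9.21% of all genes. Among the 6, *CYP79F1* and *MYB29* no longer passed with a pseudocount of 0.1 RPKM (0.81 and 0.80). In a fit of the 12 WT libraries alone they did not pass either (1.24 and 0.93). *CYP79F1* was also lost without the filter on low values, without the variance trend and without most single libraries, and *MYB29* without the first starved root library (0.81).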

How the data were processed

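The authors mapped trimmed paired reads to TAIR10 with CLC Genomics Workbench (version not given in the sources used here) and deposited RPKM for each library; no per-library column was left unused (0). Other deposited sheets hold means, ratios and gene lists of the authors' own comparisons and were not used. Totals of 19.0 to 40.7 M reads in the 36 libraries were estimated from RPKM steps and reference exon lengths, but 9.58 to 11.3% of values came out whole (within 0.001 reads), so no count test, interval or floor was computed. The highest estimates exceed the range of mapped reads per library that the paper states, and the reason is not known. Log2(RPKM + 0.25) was fitted in limma 3.58.1 (R 4.3.3) with 1 mean for each of 18 groups, 18 residual degrees of freedom, a variance trend and Benjamini-Hochberg adjustment over 21140 genes; means under 0.25 RPKM were set to 0.25 before the 2-fold limit was applied, and interactions were called by adjusted p alone. On simulated data with 200 changed genes (21036 tested), 89% of log2 changes of 1.5 and 92% of changes of 2 were found, with 4 false calls among 185. In the organ contrast 55.6% of genes were called, far more than changed in the simulation, so these rates do not describe its calls. Entries without a gene name (146, at most 0.109% of RPKM) were left out. Named genes are members of the lists, the 10 largest called differences in each direction with a mean of 10 RPKM or more in the higher organ, the 10 most abundant genes of each organ and the 8 largest interactions in each direction that passed the test and reached 10 RPKM in a WT group; other names were chosen after their values were seen. Members and lists were chosen with earlier results of these data known. Differences between the 2 replicates in shoots correlated across genes with those in roots at -0.02 to 0.119 over 9 conditions. Without the genes seen only in second-replicate shoot libraries the range was -0.0238 to 0.182. Same-numbered libraries were not paired in the fit, and such values cannot show whether they came from the same seedlings. Pseudocount, filter, scaling, library set, variance trend, fold limit and omission of single libraries were varied. Promoter windows are RefSeq TAIR10.1.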

Additional observations from a re-analysis of the deposited data

Results flagged for a closer look

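For 16 genes the organ difference itself differed between starved and Pi-sufficient seedlings by the test of the interaction in limma, and they had the largest such values among genes reaching 10 RPKM. Moving towards the shoot were *UMAMIT29*, a transporter (3.38), AT1G05675, a UDP-glycosyltransferase (2.91), AT4G39675 (2.90), the carbohydrate kinase AT3G59480 (2.90), AT1G24147 (2.88), the acyltransferase gene *AACT1* (2.78), *CNI1*, a ubiquitin ligase of the carbon and nitrogen response (2.76), and the auxin-responsive *SAUR24* (2.76). These reached that side in different ways. *UMAMIT29* had 1.27 and 1.37 RPKM in starved shoots, against 3.52 and 3.07 in starved roots, and it had 1.23 and 0.862 in shoots, against 27.1 and 32.9 in roots, at sufficient Pi. With a pseudocount of 0.1 RPKM the interaction of AT4G39675 no longer passed (2.15, adjusted p = 0.115 from limma). AT1G24147 was listed at 0 in all 4 root libraries, and had 68.7 and 96.8 RPKM in starved shoots, against 11.8 and 9.96 in shoots at sufficient Pi. *UMAMIT29* thus differed most between supplies in roots and AT1G24147 in shoots. After starvation, the log2 differences of *UMAMIT29* in lines 12 and 4 were -3.99 and -2.95, against -1.17 in WT. Those of AT3G59480 were -2.93 and -2.92, against -0.14, and those of *CNI1* were -0.36 and -0.53, against 1.46. The others of this group kept the sign of WT in both lines, and differences between plants were not tested.

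Moving towards the root were the stearoyl-ACP desaturase gene *FTM1* (-6.73), *OCT1* (-6.61), *PHT1;3* (-5.99), *IPS1* (-5.57), *PECP1* (-5.49), AT4G37220, annotated as a cold acclimation protein (-5.23), *PHT1;2* (-5.17) and AT4G36850, a PQ-loop protein (-5.15). *FTM1* had 0.292 and 1.4 RPKM in starved shoots, against 24.2 and 17.4 in starved roots, and 13.7 and 11.9 in shoots, against 2.58 and 2.30 in roots, at sufficient Pi. Its log2 difference after starvation was -0.14 in line 12 and -2.56 in line 4, against -4.46 in WT, and was not tested between plants. That of AT4G36850 was 2.57 and 1.18, against 0.07 in WT. All genes of this group kept the sign of WT in both lines.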

How the results depend on the processing

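Rescaling libraries by their median ratio left 4734 genes higher in starved roots and 4403 higher in roots at sufficient Pi; shoot counts became 4717 and 4429, and interactions 1613 towards the shoot and 1883 towards the root. With a 4-fold limit, 2123 and 3812 genes were higher in starved shoots and roots, and 2030 and 3453 at sufficient Pi. Leaving out single libraries gave 3231 to 3470 genes higher in starved shoots, 8185 to 8651 in starved roots, 3155 to 3403 and 7373 to 7696 at sufficient Pi, 723 to 1040 interactions towards the shoot and 1107 to 1678 towards the root. The lower ends of the last 2 ranges come from leaving out the first and the second root library at sufficient Pi. Pseudocounts, filters, library sets and the variance trend kept all 6 counts within 1.5 times. A fit of the 12 WT libraries alone, without the lines, gave 860 interactions towards the shoot and 1411 towards the root. With the numbers as a replicate block, counts were 3315, 8441, 3230, 7601, 1073 and 1763. Same-numbered libraries were not treated as pairs in the main fit. Among named genes, 11 alternative values of the organ difference after starvation, for 8 genes, had the other sign. On rescaling, AT1G54410 lay at 0.53, AT3G59480 at 0.50, *GDPD1* at 0.49, *SUC1* at 0.44 and *UBC21* at 0.32. Leaving out single libraries gave ranges that span 0 for *AS1* (-0.0651 to 0.22), AT3G59480 (-0.33 to 0.0528), *PHR1* (-0.0516 to 0.12) and AT4G36850 (-0.30 to 0.43). Where a single library was left out, the other of its group was assumed to vary like the other groups. With 2 libraries for each group, genes near 0.25 RPKM are measured with little precision.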

Other observations

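Genes annotated as ribosomal proteins were not described above. Of 317 tested, 38 were higher in starved shoots and 215 in starved roots (median log2 -1.28), and on rescaling 43 and 47 were. Most of their interactions had the same sign: 123 of 317 moved towards the root and 2 towards the shoot, beside 9.21% and 5.32% of all genes, and on rescaled values 124 and 4 did. The median change on starvation was -0.68 in shoots and -0.23 in roots (log2), against -0.13 and -0.05 over all genes tested. Of the 38 genes higher in shoots, 0 moved towards the root and 2 towards the shoot. In the 500 bases before the gene start, the telo-box letters AAACCCTA, searched on both strands, were found in 16.4% of ribosomal protein genes and in 6.34% of all genes.

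After their values were seen, 19 genes called for opposite organs at the 2 Pi supplies were picked out, of which *FTM1*, *PECP1*, AT4G37220 and *CNI1* are given above. *MIOX2*, a myo-inositol oxygenase, had 5.22 and 13.3 RPKM in starved shoots, against 29.1 and 29.6 in starved roots, and 197 and 222 in shoots, against 91.3 and 79.5 in roots, at sufficient Pi, and its call after starvation was lost on rescaling. So were the root calls after starvation of AT4G33560, AT1G29090, AT4G22470, *HIPP21* and *MIOX4*, and the set of 19 genes therefore depends on the scaling. *CBP60G*, a regulator of defence genes, had 23.5 and 25.8 RPKM in starved shoots, against 9.58 and 7.09 in starved roots, and 4.89 and 4.57 in shoots, against 11.8 and 9.50 in roots, at sufficient Pi. The log2 differences after starvation in lines 12 and 4 were 1.41 and 1.37 for *MIOX2*, against -1.78 in WT, and 0.35 and 0.31 for *CBP60G*, against 1.55 in WT, and these differences between plants were not tested.

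P1BS letters were found before 13.7% of the genes that moved towards the root and 13.9% of those that moved towards the shoot. Among genes that moved by a log2 value of 2 or more, 27 of 150 (18%) towards the root and 20 of 89 (22.5%) towards the shoot had them, against 10.9% of all genes. The G-box letters CACGTG, searched for comparison, were found before 8.08% and 12.2% of the genes that moved towards the root and the shoot, beside 2121 of all 21055 genes with a window, and before 19 of the 150 (12.7%) and 18 of the 89 (20.2%) that moved by 2 or more, so that among the 89 both elements were more frequent than over all genes.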
